A study of Mus musculus with 6 samples.

Results

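The genes described here are 9 genes of the interferon system in mouse hippocampus: the type I receptor chains Ifnar1 and Ifnar2, the type II receptor chains Ifngr1 and Ifngr2, the transcription factors Stat2, Irf7 and Irf9, and the response genes Ifit3 and Oasl2. They were chosen by gene symbol, and all 9 were among the 15388 genes of the deposited table and passed the filter on low reads. All 6 libraries came from 3 tamoxifen-induced mice, about 3 months of age per the methods, with the genotype Cx3cr1-Cre/Ert2+; NuTRAP+, numbered 201, 207 and 208. Cre under the Cx3cr1 promoter switches on a reporter, NuTRAP, that puts a GFP tag on ribosomes of the recombined cells. Each mouse gave 1 Input library, made from cleared hippocampal homogenate, and 1 Positive library, made from ribosomes bound by an antibody to GFP (translating ribosome affinity purification, TRAP). The Cx3cr1 promoter also acts in other macrophages and in monocytes. All libraries carried Cre and reporter alike, and strain and sex of each animal were not given in the labels used here.

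Interferons are secreted proteins of antiviral defense. Type I interferons bind a receptor built from Ifnar1 and Ifnar2, and gamma interferon, the type II form, binds one built from Ifngr1 and Ifngr2. Behind the type I receptor, Janus kinases activate Stat proteins, and Stat2 with its Stat partner and Irf9 forms a complex that binds the interferon-stimulated response element (ISRE) before response genes. Gamma interferon acts mainly through Stat dimers that bind the gamma-activated site (GAS). Microglia, the resident macrophages of the brain, are known to respond to both types.

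To show the DNA letters on which these 2 pathways act, the RefSeq promoter windows (250 bases before to 50 after a gene start, GRCm38.p6, the same assembly as mm10) of all 9 genes were searched on both strands. An ISRE core was taken as GAAA, any 2 bases, then GAAA, and a GAS as TTCNNNGAA. Of the genes, 2 of 9 held an ISRE core (Stat2 and Ifit3) and 2 of 9 a GAS (Ifnar1 and Ifnar2), against 3.99% and 9.55% of all 27025 genes with a window. Ifit3 held a pair of ISRE cores. Distances are counted from the RefSeq start, which for some genes lies some bases from the gene start of the deposited table that is given with the values further on. Each line gives one match with 15 bases on either side, 5′ to 3′ on the strand of the gene, and capitals mark the matched letters, which for the ISRE core read on the opposite strand.
Ifit3, chr19:34583358-34583397, core starting 156 bases before the RefSeq start: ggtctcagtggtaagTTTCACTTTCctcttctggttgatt
Ifit3, chr19:34583392-34583431, core starting 122 bases before: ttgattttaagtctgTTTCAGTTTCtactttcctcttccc
Stat2, chr10:128270261-128270300, core starting 222 bases before: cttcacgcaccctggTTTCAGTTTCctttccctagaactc
Ifnar2, chr16:91372554-91372592, GAS starting 214 bases before: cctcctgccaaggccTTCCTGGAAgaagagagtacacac
Ifnar1, chr16:91485195-91485233, GAS starting 5 bases before: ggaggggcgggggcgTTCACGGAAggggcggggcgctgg

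No window of the other 5 genes held either set of letters. None of the 9 held GAGGAAGT, an exact form of the site bound by the myeloid factor PU.1. As only 3.69% of all genes held it, its absence from 9 genes says little, and other forms were not searched. The receptor chains and Stat2 had many CpG dinucleotides in their windows, from 31 in Ifngr2, 26 in Ifnar1, 22 in Stat2 and 18 in Ifnar2 to 14 in Ifngr1, against a median of 7 over 32851 windows. Ifit3 held 1 CpG, Oasl2 3 and Irf7 7, and the windows of Irf9, which has a pair of start sites, held 9 and 1. A match of letters is a description and not a bound site. The contrast between both gamma receptor chains is shown by the 150 bases before each start, with CpG in capitals.
Ifngr1, chr10:19591799-19591948, plus strand: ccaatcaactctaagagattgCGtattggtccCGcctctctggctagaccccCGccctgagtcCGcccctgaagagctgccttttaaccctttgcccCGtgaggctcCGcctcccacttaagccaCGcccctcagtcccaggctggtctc
Ifngr2, chr16:91546909-91547058, plus strand: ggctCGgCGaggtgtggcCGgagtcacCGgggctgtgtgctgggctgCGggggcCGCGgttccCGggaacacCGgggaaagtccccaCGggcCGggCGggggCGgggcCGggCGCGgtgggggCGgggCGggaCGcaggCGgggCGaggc

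The question put to the libraries was which of these mRNAs were enriched on tagged ribosomes. Of the 9 genes, 7 were higher in Positive than in Input, 0 were lower, and Ifngr2 and Stat2 did not pass the test (edgeR quasi-likelihood test over 15343 genes, Benjamini-Hochberg adjusted p-value under 0.05, n = 3 per fraction). Over all genes tested, 23.9% were higher and 22% lower, and 46% differed in either direction. The count of 0 lower genes was also 0 in DESeq2 and in limma, and no gene of the 9 had a negative fold change with an unadjusted p-value under 0.05. In the same 7 genes every Positive library lay above every Input library, a separation that 28.9% of all genes tested showed, while 27.6% showed the opposite one and 56.5% either. The median log2 fold change of the 9 genes was 0.80, against -0.01 over all genes tested. TRAP compares bulk fractions of the same homogenate, so a fold change is not an amount of mRNA per tagged cell. RNA of untagged cells left in Positive, and ribosome-bound as against total RNA, cannot be told apart from expression in tagged cells.

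The levels below are scaled reads, that is, reads divided by a size factor that evens out library depth, and the libraries held from 14879734 to 17757918 reads. The fractions carried the markers of the labelled cell: all 10 microglia markers tested were higher in Positive, with a median log2 fold change of 4.63 and a summed level of 4924 to 5195 scaled reads in Input and 94200 to 138500 in Positive. Markers of other cells moved along with them. All 8 border macrophage markers were higher, with sums of 203.9 to 258.9 in Input and 2749 to 5947 in Positive. Of these, Pf4, Clec4n, Ms4a7 and Lyve1 passed the filter on low reads only through Positive. A lower call was thus hardly possible for them. Mrc1, Cd163, F13a1 and Cbr2 passed it in both fractions, with log2 fold changes from 3.8 for Cbr2 to 4.5 for F13a1. All 10 endothelial markers were higher too, with sums of 1996 to 2400 in Input and 5141 to 10450 in Positive. Of 10 monocyte and neutrophil markers only Ly6c2 was in the table, with at most 24.7 scaled reads in any library, and of 9 lymphocyte markers only Cd4, with at most 68. No marker of microglia, border macrophages or endothelium was at 0 in any Positive library. Of the other lists, 10 of 10 oligodendrocyte markers were lower, 5 of 10 astrocyte markers were lower and 1 higher, and 1 of 10 mural markers was higher and 1 lower. Of 10 neuron markers 3 were higher and 0 lower, with a median log2 fold change of 0.16. Their sums were 147000 to 166400 in Input and 165600 to 198600 in Positive, so neuron markers were not depleted in Positive. The part of border macrophages, endothelial cells and neurons in the interferon genes was not tested.

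**Figure D1:**
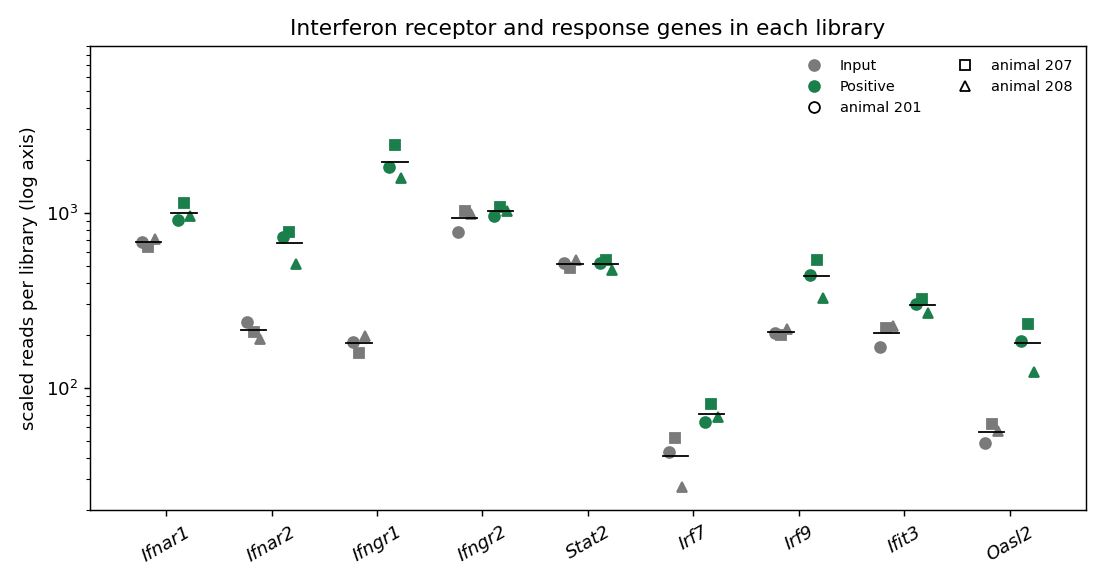
Scaled reads (log axis) of the 9 genes in the 6 libraries, with grey for Input and green for Positive, marker shape for the animal, and a short line at the mean of 3 libraries. Fractions are apart in 7 genes and overlap in Ifngr2 and Stat2, and Ifngr1 has the widest gap.

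The receptors were uneven, since 1 chain of each pair was strongly enriched and its partner little or not. Ifngr1, the chain that binds gamma interferon with high affinity (chromosome 10, 19591949 to 19610229, plus strand, mm10), had 183, 158 and 198 scaled reads in the Input libraries of animals 201, 207 and 208. Its Positive libraries had 1833, 2453 and 1591. The Positive values were far above Input in every animal, with a log2 fold change of 3.45 ± 0.16 (SE), or 10.9-fold (edgeR, adjusted p = 2.2e-09). It was the only one of the 9 genes higher by over 5-fold, which 3.75% of all genes tested were, and 2.07% of them had a larger log2 fold change.

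Ifngr2, the accessory chain that the gamma receptor needs to signal (chromosome 16, 91547072 to 91565169, plus strand), had 782, 1030.1 and 986 scaled reads in Input and 959, 1081 and 1025 in Positive, in the same order of animals. The fractions overlapped, as 2 of the 3 Input libraries lay above the lowest Positive library. Within animals, Positive was above Input in all 3, with log2 ratios of 0.29, 0.07 and 0.05. The fitted log2 fold change was 0.13 ± 0.11 (SE) with a 95% interval of -0.10 to 0.36 (edgeR, adjusted p = 0.332), so that a rise by more than 1.28-fold was outside the interval.

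Ifnar2, the chain of the type I receptor with the higher affinity for its ligands (chromosome 16, 91372783 to 91405589, plus strand), had 239, 210 and 191 scaled reads in Input and 726, 776 and 512 in Positive. Each Positive library exceeded every Input library more than 2-fold, and animal 208 had the smallest value among the Positive libraries. Between fractions the log2 fold change was 1.66 ± 0.16 (SE, edgeR, adjusted p = 2.48e-06). A gene model named Gm21970 overlaps Ifnar2 on the same strand over 13869 bases and had its own reads in the table, with a log2 fold change of 1.75, so reads split between both are uncertain.

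Ifnar1, the partner chain (chromosome 16, 91485238 to 91507441, plus strand), had 685, 638 and 713 scaled reads in Input and 913, 1142 and 957 in Positive. Positive was above Input in all 3 animals, though by less than for Ifnar2, with a log2 fold change of 0.56 ± 0.10 (SE, edgeR, adjusted p = 0.000571).

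Whether partner chains changed unequally was tested on their ratio within each library, in which library scaling cancels. Reads of Ifngr1 per read of Ifngr2 were 0.234, 0.154 and 0.202 in Input and 1.91, 2.27 and 1.55 in Positive, so that the order of both chains was turned around in every animal. The mean shift was 3.29 on the log2 scale ± 0.52 (SD over 3 animals), from 2.95 to 3.88. Reads of Ifnar1 per read of Ifnar2 were 2.87, 3.04 and 3.73 in Input and 1.26, 1.47 and 1.87 in Positive. Here the ratio fell by 1.08 on the log2 scale ± 0.10 (SD over 3 animals) without a change of order in reads. Reads do not allow for exon length, taken as 5940 bases for Ifnar1 and 3329 for Ifnar2. Per kilobase of exon, Ifnar1 had the higher mean in Input (114 against 64) and Ifnar2 in Positive (202 against 169). Among Positive libraries, Ifnar2 was ahead in animals 201 and 207 and Ifnar1 in animal 208. The ratio of Ifngr1 to Ifnar1 rose by 2.87 ± 0.27 (SD over 3 animals). In each pair the fractions did not overlap, and the two-sided exact permutation p-value was 0.1, also adjusted over the 5 pairs compared, which is the smallest value that 3 against 3 libraries can give. These libraries are 3 pairs from the same animals, and swaps of the fractions within animals gave an exact permutation p-value of 0.25 for each of the 5 ratios, the smallest that 8 such swaps allow.

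**Figure D2:**
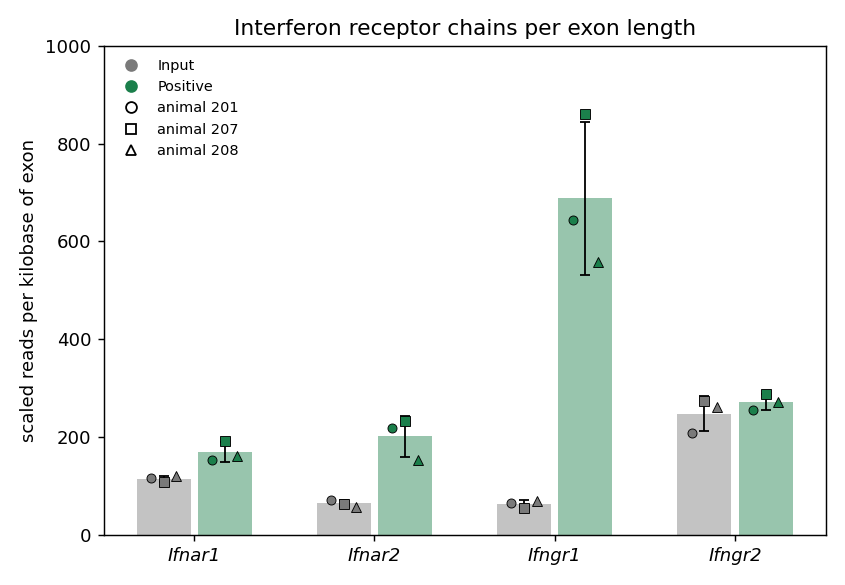
Scaled reads per kilobase of exon for the 4 receptor chains, as bars at the mean of 3 libraries with SD and one marker per animal, grey for Input and green for Positive. Ifngr1 goes from 63.1 to 688 and overtakes Ifngr2, which is at 248 in Input and 271 in Positive.

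Per kilobase of exon, levels can also be set side by side between genes. In Input, Ifngr2 was highest of the 9 genes, with 248 ± 35.1 scaled reads per kilobase (SD, n = 3). Ifit3 followed with 118 and Ifnar1 with 114, whose libraries overlapped, then Stat2 with 86.6. Ifnar2 with 64 and Ifngr1 with 63.1 overlapped as well, and below them were Irf9 with 38.6, Irf7 with 10.8 and Oasl2 with 8.75, of which the last pair overlapped. In Positive the order was led by Ifngr1 with 688 ± 156 (SD, n = 3), above Ifngr2 with 271 ± 16.2 and Ifnar2 with 202 ± 42.1. Ifit3 with 171 and Ifnar1 with 169 overlapped each other and Ifnar2, and Stat2 with 86.2 overlapped Irf9 with 81. Oasl2 with 28.4 and Irf7 with 18.8 were again lowest and overlapped. Exon lengths were the union of exons in GENCODE M21, which may differ from the gene models used for counting. The union was 3776 bases for Irf7, which is its whole gene span, and 5386 bases for Irf9. Such long unions lower the value per kilobase, so the order between genes depends on this choice, and other lengths were not tested.

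On chromosome 16, Ifnar2, Il10rb, Ifnar1 and Ifngr2 lie in this order on the plus strand within 192.4 kilobases. Il10rb, a chain shared by the receptors of lambda interferon and interleukin 10, had 131, 119 and 103 scaled reads in Input and 586, 764 and 456 in Positive, a log2 fold change of 2.36 ± 0.18 (SE, edgeR, adjusted p = 3.69e-07). The log2 fold changes along the cluster were thus 1.66, 2.36, 0.56 and 0.13. Gm21970 overlaps Il10rb too.

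Among the transcription factors, Irf9 and Irf7 were higher in Positive and Stat2 was not. Irf9, the DNA-binding partner of Stat2 (chromosome 14, 55603571 to 55610030, plus strand), had 207, 200 and 216 scaled reads in Input, the tightest spread of the 9 genes in that fraction, with a coefficient of variation of 4.01%. Its Positive libraries had 443, 539 and 327, all above Input but 24.3% apart by the same measure. Positive exceeded Input by a log2 fold change of 1.07 ± 0.17 (SE, edgeR, adjusted p = 0.000185). Its model shares 123 bases with Rnf31 on the same strand, a gene with a log2 fold change of 0.12.

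Stat2, which carries the transcription-activating part of the complex (chromosome 10, 128270559 to 128292849, plus strand), had 517, 486 and 536 scaled reads in Input and 517, 540.5 and 474 in Positive. The fractions overlapped fully, and 1 of 3 animals was higher in Positive. The fitted log2 fold change was -0.01 ± 0.10 (SE) with a 95% interval of -0.22 to 0.21 (edgeR, adjusted p = 0.964). Within a library, reads of Stat2 per read of Irf9 were 2.5, 2.43 and 2.48 in Input and 1.17, 1.00 and 1.45 in Positive, so the ratio fell by 1.05 on the log2 scale ± 0.25 (SD over 3 animals, exact permutation p-value 0.1 over 20 free labelings).

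Irf7, which amplifies the type I response once it is induced (chromosome 7, 141262706 to 141266481, minus strand), was the gene with the fewest reads. It had 42.8, 51.7 and 27.3 scaled reads in Input and 63.9, 80.9 and 68.5 in Positive, and the Input library of animal 208 was the lowest. Between fractions the log2 fold change was 0.80 ± 0.26 (SE, edgeR, adjusted p = 0.0241). Irf7 shares 45 bases with Phrf1 on the opposite strand. The call of Irf7 was lost without the Input library of animal 208, with a log2 fold change of 0.59 (edgeR, adjusted p = 0.109), without the Input library of animal 201, with a log2 fold change of 0.84 (edgeR, adjusted p = 0.0543), and when the Positive library of animal 207 was left out, with 0.70 (edgeR, adjusted p = 0.0861). Over the 12 alternatives that kept Irf7 its edgeR, DESeq2 or limma adjusted p-value ranged from 0.0139 to 0.109.

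Both response genes were higher in Positive. Oasl2, a member of the oligoadenylate synthetase-like family (chromosome 5, 114896936 to 114912234, plus strand), had 48.7, 62 and 56.6 scaled reads in Input and 186, 233 and 123 in Positive. Animal 208 had the lowest Positive library, which was still above all Input libraries. Positive exceeded Input by a log2 fold change of 1.69 ± 0.24 (SE, edgeR, adjusted p = 8.28e-05).

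Ifit3, a member of the tetratricopeptide family that restrains viral translation and signaling (chromosome 19, 34583531 to 34588731, plus strand), had 171, 219 and 226 scaled reads in Input and 303, 323 and 267 in Positive. All Positive libraries were above Input, and the log2 fold change was 0.53 ± 0.15 (SE, edgeR, adjusted p = 0.00962). Ifit3 has a near-identical copy, Ifit3b, whose log2 fold change was -0.11 (edgeR, adjusted p = 0.688), and reads shared by both are uncertain. Reads of Ifit3 per read of Oasl2 were 3.48, 3.52 and 3.96 in Input and 1.62, 1.39 and 2.16 in Positive, a fall by 1.10 on the log2 scale ± 0.23 (SD over 3 animals, exact permutation p-value 0.1 over 20 free labelings). Of both, only Ifit3 held ISRE cores in its window. Other forms of the element and other stretches of DNA were not searched, and a link to fold change was not tested.

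**Figure D3:**
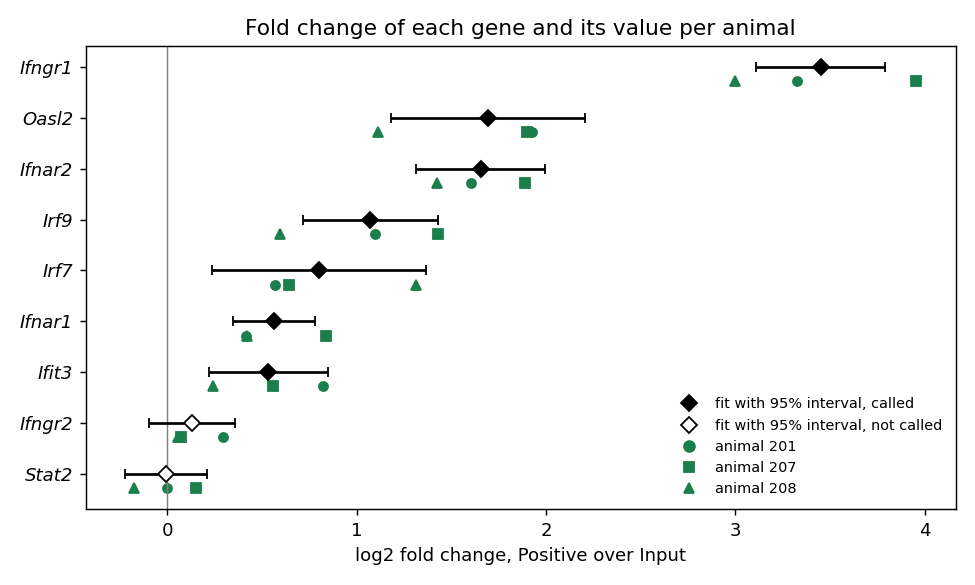
Log2 fold change of Positive over Input for the 9 genes, with diamonds and bars for the fit and its 95% interval (filled where called) and green markers for each animal. Intervals of Ifngr2 and Stat2 include 0, and Ifngr1, at 3.45, lies beyond the intervals of the other 8 genes.

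The spread between animals was larger in Positive than in Input for 6 of the 9 genes and smaller for Ifngr2, Irf7 and Ifit3. Of the 9 genes, 9 had their highest Positive value in animal 207 and 6 their lowest in animal 208, whereas in Input 5 were highest in 208, 3 in 207 and 1 in 201. Markers of microglia showed the same order in Positive, with 10 of 10 highest in 207 and 10 of 10 lowest in 208, and so did border macrophage markers, with 8 of 8 highest in 207 and 6 of 8 lowest in 208. Endothelial markers were highest in animal 201 in 9 of 10 and lowest in 208 in 10 of 10. The coefficient of variation between Positive libraries was 30.4% for Oasl2, 24.3% for Irf9, 22.7% for Ifngr1 and 20.9% for Ifnar2, against a median of 9.01% over 12122 genes that averaged 100 scaled reads or more. In Input the same 4 genes had 12.0%, 4.01%, 11.4% and 11.3%, against a median of 7.03%. For Irf7 the coefficient was 30.4% in Input and 12.4% in Positive, for Ifit3 14.5% and 9.57%, and for Ifngr2 14.2% and 5.97%. Ifnar1 had 5.64% and 12.1%, and Stat2 4.97% and 6.58%. Without the Positive library of animal 208 the same 7 genes were called.

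The rest of the pathway was read from lists of 146 genes, of which 108 were tested. Of these, 87 were higher in Positive and 2 lower, with a median log2 fold change of 1.36 against -0.01 over all genes tested. The shares over all genes tested, 23.9% higher and 22% lower, stand beside each count of the lists below. Some genes low in Input passed the filter only through Positive, so that a lower call was hardly possible for them. Of the pathway genes named below, these were Tlr9 with 8.16 to 18.9 scaled reads in Input, Sp110 with 9.96 to 32.6 and Gbp9 with 19.4 to 42.2. Members and lists had been chosen with earlier results of these libraries known. None of 14 interferon ligand genes was in the table, which holds genes with at least 20 reads in every library of a fraction.

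Of 4 other receptor chains and Janus kinases tested, 3 were higher. Besides Il10rb these were Jak1, the kinase shared by all interferon receptors, at a log2 fold change of 0.75 ± 0.07 (SE), and Tyk2, the kinase bound to Ifnar1, with 0.61 ± 0.11. Jak2, the kinase bound to Ifngr2, had 477, 516 and 473 scaled reads in Input and 573, 641 and 505 in Positive, with a log2 fold change of 0.23 ± 0.11 (edgeR, adjusted p = 0.101), and passed in 1 of 13 alternatives. All 5 other Stat genes tested were higher, from 0.61 for Stat5b to 2.52 for Stat6, the factor of interleukin 4 signaling.

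All 6 other interferon regulatory factors tested were higher. Irf5, which acts behind Toll-like receptors, and Irf8, which specifies macrophages, had 41.3 to 57 and 79.1 to 112 scaled reads in Input and rose to between 810 and 1315 and between 1432 and 1970. Their log2 fold changes were 4.45 and 4.11. Irf1, a factor induced by gamma interferon, had 1.42, Irf2, its antagonist, had 0.79, and Irf3, the factor activated by nucleic acid sensing, had 0.48. The call of Irf3 was kept in 9 of 13 alternatives.

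All 12 tested sensors of nucleic acids and their adaptors were higher. The endosomal receptors Tlr7 and Tlr9 had log2 fold changes of 4.47 and 4.30, and Tmem173, the adaptor of cytosolic DNA sensing known as STING, had 4.17. Ifih1, a cytosolic sensor of double-stranded RNA, had 1.90. The smallest were 0.84 for the adaptor Ticam1 and 0.39 for the kinase Tbk1, both still called.

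Of 51 other type I response genes tested, 41 were higher, 0 lower and 10 did not pass, with a median log2 fold change of 1.44. The highest among those with at least 100 scaled reads were the galectin Lgals9 with 3.79, the ubiquitin ligase Trim30a with 3.46, Slfn2 with 3.43 and the nuclear body protein Sp110 with 3.40. The lowest called were Adar, the RNA-editing enzyme, with 0.37 and Daxx with 0.29, and Adar passed in 10 and Daxx in 6 of 13 alternatives. Not called were Ifi27 at -0.16, Cmpk2 at 0.18 and Ifitm10 at -0.28, with edgeR adjusted p-values of 0.241, 0.212 and 0.0996. An ISRE core stood in the window of 26 of the 53 genes of this list that had one, against 3.99% of all genes.

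Of 14 tested GTPases and regulators induced by gamma interferon, 13 were higher, with a median log2 fold change of 1.93. Gbp7 had 2.81, the adhesion molecule Icam1 2.77, Gbp9 2.65 and Irgm2 2.63, and the lowest with at least 100 scaled reads were Gbp3 with 1.54 and Irgm1 with 1.11. Tgtp1 did not pass, with 0.52 (edgeR, adjusted p = 0.143). A GAS stood in 7 and an ISRE core in 9 of the 11 genes of this list with a window, against 9.55% and 3.99% of all genes. These 11 are not the same set as the 14 tested.

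Of 16 negative regulators, 7 were higher and 2 lower, and the median log2 fold change was 0.25. Ptpn6, the phosphatase SHP-1 of blood cells, had 54 to 58.1 scaled reads in Input and 1278 to 1838 in Positive, with a log2 fold change of 4.88 ± 0.16 (SE). Samhd1, which degrades nucleotides needed by viruses, had 1.32, and the phosphatase Ptpn1 1.01. Ptpn11, the widely expressed relative of Ptpn6, had 0.08 (edgeR, adjusted p = 0.453). Lower were Pias2, a SUMO ligase, with -0.40, and Cish, a feedback inhibitor of Stat5 signaling, with -0.92, which was named after its value was seen.

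**Figure D4:**
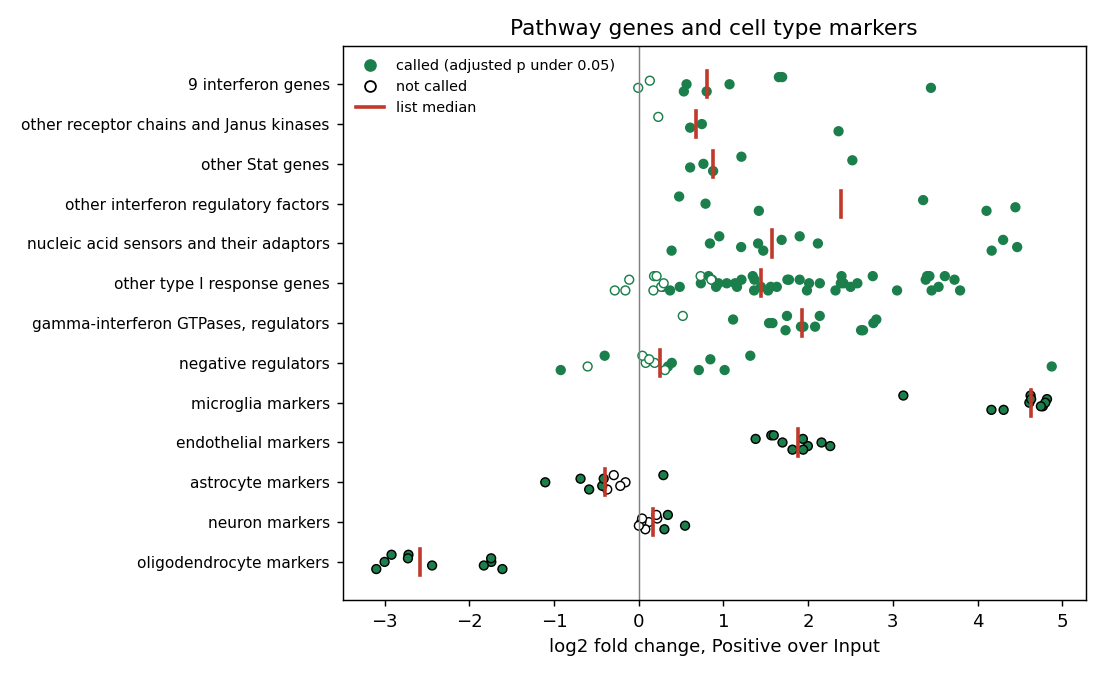
Log2 fold change of Positive over Input for each gene of the 9 interferon genes, of the pathway lists (green outline) and of marker lists (black outline). Filled points passed the test, and red bars are list medians: 0.80 for the 9 genes, 1.93 for the gamma-interferon list, 4.63 for microglia markers and -2.58 for oligodendrocyte markers.

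For each of the 8 genes that averaged 100 scaled reads or more, the other gene with the most similar pattern was found as the smallest root mean square difference of centered log2 scaled reads over the 6 libraries. Oasl2 was closest to Gbp2, a guanylate-binding protein of the gamma-interferon list, with a difference of 0.0481, and Ifngr1 to Slfn2, of the type I list, with 0.0936. Ifnar2 was closest to Naglu (0.052), Ifnar1 to Ythdf2 (0.0427), Stat2 to Bfar (0.0218), Ifngr2 to Gm7658 (0.0243), Irf9 to Armc3 (0.0645) and Ifit3 to Gm13136 (0.0336). Low differences were sought among all genes tested, so these pairs are a description.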

How the data were processed

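Hippocampal TRAP RNA of 3 mice was analysed as 3 Input and 3 Positive libraries, grouped by the fraction label. Per the file header and the methods of the study, the authors trimmed reads, aligned them by strand to mm10 in Strand NGS and kept genes whose raw reads reached 20 in all libraries of 1 fraction. The submitters' processing notes name DESeq. The deposited raw columns are expected counts (estimated counts that need not be whole), and the deposited normalized columns are log2 values relative to the Input median of each gene. Mates of a pair may have been counted separately, since 64.7% to 69.3% of whole values under 60 were even; counting intervals were therefore not used, and errors are SD between animals or SE of the fit.

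Expected counts were rounded and tested with edgeR 4.0.16 in R 4.3.3 (quasi-likelihood, RLE scaling, no animal block), keeping 15343 genes with over 20 scaled reads in every library of 1 fraction. Values per animal and within-library ratios used a pseudocount of 0.5. DESeq2 1.42.0 and limma 3.58.1 were alternatives. Fractions of 1 number come from the same animal, and deviations of their libraries correlated by r = 0.273, 0.0844 and 0.15 across 12125 genes. The method was tested on simulated data, where 95.7% of 200 changed genes were called and 5.82% of calls were false at an adjusted threshold of 0.05. Those data had 200 changed genes of 15343 and no animal effect, whereas 46% of genes were called here. The rates may therefore not hold for these libraries. Every one of the 9 genes was named. From other pathway lists, called genes averaging 100 scaled reads or more were named, up to the 4 with the largest and the 2 with the smallest fold change, and up to 3 not called by the highest mean, with no minimum. Outside this rule, neighbors, overlapping genes and the copy Ifit3b were named for their position or sequence, Ly6c2 and Cd4 as the only markers of their lists in the table, and Cish as 1 of 2 lower genes. The 9 genes and all lists were chosen with earlier results of these data known. Sequences are from RefSeq, GRCm38.p6, and all 9 genes matched by symbol.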

Additional observations from a re-analysis of the deposited data

How the results depend on the processing

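Scaling, filter, tool, the animal as a replicate block and leaving out each library were varied. Of 116 recomputed fold changes of the 9 genes, 110 kept direction and side of the threshold. With a filter at 100 scaled reads Irf7 was not tested, so 6 genes were higher, and as fewer genes were tested, 60 pathway genes were higher in place of 87 and 1 was lower in place of 2. Leaving out 1 library gave 6 to 7 higher and 0 lower genes, and 80 to 91 higher and 2 to 3 lower pathway genes. Only Irf7 lost its call, as given above. The log2 fold change of Stat2, past no threshold, changed sign without the Input library of animal 201 (1.94e-05) or 208 (0.0269) and without the Positive library of animal 208 (0.045), over a leave-one-out range of -0.049 to 0.045, and the cause was not tested.

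With the replicate block the paired fit called the same number, 7 higher and 0 lower, and 88 pathway genes higher and 2 lower. The mean of per-animal ratio shifts equals the difference of group means by arithmetic and is no separate check. Swapping fractions within animals, a test added after the data were seen, allows no p-value under 0.25. Leaving out 1 library, the log2 shift of the ratio of Ifngr1 to Ifngr2 was 3.12 to 3.43, for Ifnar1 to Ifnar2 -1.23 to -0.95, for Ifngr1 to Ifnar1 2.79 to 2.97, for Stat2 to Irf9 -1.19 to -0.92 and for Ifit3 to Oasl2 -1.28 to -0.96. Irf7 had the fewest reads, 26 to 87 per library, and the part of depth in its lost calls was not tested.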
